A study of Papio anubis with 588 samples.

Results

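Interferon-stimulated genes are switched on when a cell senses interferon, and a list of 41 such genes was followed through liver, muscle and adipose tissue of olive baboons, Papio anubis, held in captivity and studied for the effects of diet. The genes were chosen by symbol, from the antiviral effectors, the ISG15 pathway, the RNA sensors, the transcription factors of the response and related interferon-inducible proteins. Of the 41, 39 had a row among the 34178 genes of the count table, and IFI27 and GBP2 were not analysed here. All 39 were tested in liver and in adipose tissue, and 38 in muscle. The exception was OASL, whose median count in muscle was 6 in HCHF and 4 in LCLF libraries, with 0 counts in 7 of 98 and 2 of 96 libraries.

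Type I interferon binds a receptor on almost every cell, and the kinases JAK1 and TYK2 then activate a complex that holds STAT2 and IRF9 and binds interferon-stimulated response elements. The genes so induced block viral entry, translation and replication, tag proteins with ISG15, and include the sensors and factors that feed the response. Type II interferon has a receptor of its own and favours genes such as IRF1 and GBP1. In liver, muscle and fat the genes are made both by the parenchymal cells and by resident immune and endothelial cells, and a basal level is present without infection.

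RNA sequencing was done on biopsies of 99 animals, each sampled after 2 years on a diet high in cholesterol and fat (HCHF) and before it, at 0 years, on a diet low in both (LCLF). The labels give neither age nor sex, and no animals that stayed on LCLF were analysed here. An HCHF minus LCLF difference therefore also holds 2 years of age and time. After the authors' quality control 570 of 588 libraries were left. Liver had 87 HCHF and 95 LCLF libraries, muscle 98 HCHF and 96 LCLF, and adipose tissue 95 HCHF and 99 LCLF. Both diets were sampled in 84 animals for liver and in 95 animals for each other tissue. Total counts lay between 6.51 M and 38.46 M (median 19.5 M), and the 16 animals taken as the first library batch were shallower (median 10.95 M) than the other 83 (20.1 M). The labelled tissues carried their markers. Hepatocyte genes took a median of 20.0% of counts in liver and myocyte genes 22.3% in muscle, while adipocyte genes in adipose tissue had a median of 1.7% but were as low as 0.108%. Animals with a library low in its own markers or rich in those of another tissue are called animals in doubt, and results are given without them where that matters: liver has 5, muscle 2 and adipose tissue 9.

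The listed genes varied together across animals within each tissue. Over all pairs of the listed genes the median correlation across animals was 0.471 in HCHF and 0.423 in LCLF liver, 0.534 and 0.490 in muscle, and 0.568 and 0.565 in adipose tissue. Over all pairs of genes tested it lay between -0.004 and -0.001. OAS1, a synthetase of the oligoadenylates that activate RNase L, tracked the mean of the other listed genes in every group, with r of 0.853 in HCHF and 0.836 in LCLF liver, 0.862 and 0.780 in muscle, and 0.896 and 0.892 in adipose tissue. STAT2 followed them least in liver among the transcription factors, at 0.081 in HCHF and 0.112 in LCLF libraries, and the within-animal change of STAT2 ran against theirs (r = -0.233). ISG20, an antiviral exonuclease, was at -0.030 and 0.000 in liver but at 0.681 and 0.643 in muscle. USP18, the protease that removes ISG15 and dampens the receptor, followed the others closely in liver (0.792 and 0.835) and weakly in adipose tissue (0.228 and 0.151). Among 12494 genes tested in every tissue, the unlisted genes most like the mean of the list over the 6 tissue and diet groups were ADAR (mean r 0.783), which edits double-stranded RNA, DDX60 (0.766), an RNA helicase, and PSMB9 (0.757), a subunit of the immunoproteasome. These correlations share library, depth and batch and are given as description.

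On the LCLF diet nearly all of the genes were lower in muscle than in the other tissues. Liver exceeded muscle for 38 of 39 genes, against 48.6% of all genes, and muscle exceeded liver for IFI35 alone (44.8% of all genes). The median difference was 1.81 on the log2 scale for the listed genes and 0.071 for all genes (edgeR, 92 animals). IFI6, a small membrane protein of mitochondria and the endoplasmic reticulum, had 142, 528 and 1700 CPM (library-scaled counts, TMM over all tissues; lowest, median and highest library) in liver, against 6.56, 14.9 and 97.7 CPM in muscle. The libraries of the 2 tissues did not overlap for IFI6, and the difference was 5.04 ± 0.10 on the log2 scale (SE). ISG15, the ubiquitin-like modifier, had a median of 24.9 CPM in liver and 1.21 CPM in muscle, with some overlap (9.0 to 123 CPM and 0.246 to 14.7 CPM). BST2, or tetherin, which holds budding virions at the cell surface, differed by 3.81 ± 0.08.

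Adipose tissue stood above muscle for 38 of 39 genes (50.9% of all genes) and below it for IFI35 (43.2% of all genes), with a median difference of 1.79. UBE2L6, the conjugating enzyme of the ISG15 pathway, had the largest difference, 2.7 ± 0.09, at 7.57, 27.4 and 118 CPM in adipose tissue and 0.271, 4.22 and 18.8 CPM in muscle. IFI35, an interferon-induced leucine zipper protein, was the member with the opposite order, with a median of 41.9 CPM in adipose tissue, 29.6 CPM in liver and 51.0 CPM in muscle. Its ranges overlapped in all 3 tissues, and the order of adipose tissue and muscle turned with the scaling: by the total count alone the medians of IFI35 were 80.1 CPM in adipose tissue, 21.8 CPM in liver and 32.4 CPM in muscle.

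Between liver and adipose tissue the genes went both ways. The 19 genes higher in liver and the 15 lower, of 39, were near the shares of all genes (46.4% and 46.5%). Higher in liver were ISG15 (3.12 ± 0.09 on the log2 scale, 95 animals), IFI6 (2.81 ± 0.08) and STAT2 (2.31 ± 0.04), the partner of IRF9, at 83.4, 177 and 342 CPM in liver and 15.8, 38.6 and 69.3 CPM in adipose tissue. The STAT2 libraries of the 2 tissues did not overlap with this scaling, but did when each tissue was scaled on its own (64.9 to 270 CPM in liver and 29.0 to 131 CPM in adipose tissue). Lower in liver were EPSTI1 (-1.57 ± 0.08), MX2 (-1.50 ± 0.07), GBP1 (-1.44 ± 0.09), SAMD9 (-1.44 ± 0.07) and IRF1 (-1.15 ± 0.06). CMPK2, HERC6, IFIT3, PARP9 and UBE2L6 did not pass the test. The count depends on the scaling. The median level was above that of liver in adipose tissue for 18 genes with TMM scaling and for 35 with the total count alone. With RLE scaling the median of all genes moved by -0.106 for liver minus adipose tissue and by 0.14 for adipose tissue minus muscle. Median TMM factors were 1.9 for adipose tissue, 0.753 for liver and 0.672 for muscle.

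**Figure D1:**
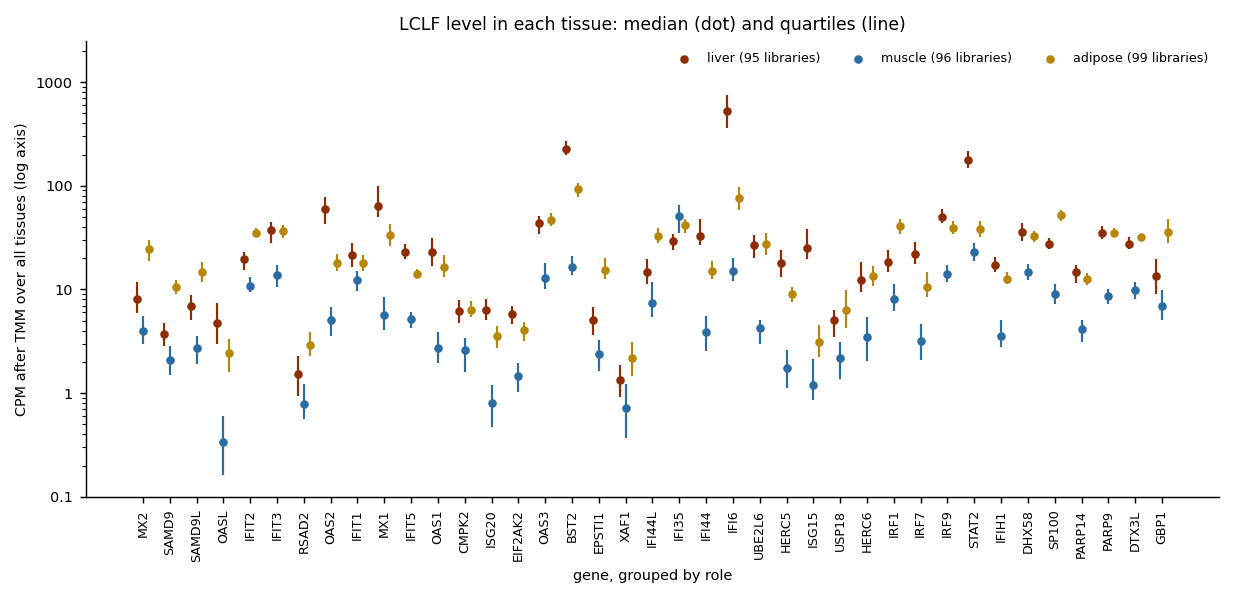
LCLF level of each of the 39 genes in liver, muscle and adipose tissue, in CPM after TMM scaling over all tissues (log axis); dots are medians over libraries and lines run between the quartiles. Muscle lies lowest for all genes but IFI35, and IFI6 is at 528 CPM in liver against 14.9 CPM in muscle.

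The first question of the design was how the change of diet moved these genes within animals. In liver 22 of the 39 genes were higher on the HCHF diet and 1 was lower, where 22.3% of all genes were higher and 27.1% lower (quasi-likelihood F-tests of edgeR, blocked on animal, Benjamini-Hochberg adjusted over 14919 genes at 0.05, as for all diet effects). The fold changes of 36 genes were above 0, and their median was 0.144 on the log2 scale against -0.03 for all genes. In a bulk biopsy, more RNA per cell and more cells of a type that makes it cannot be told apart.

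The antiviral effectors gave 9 of the 17 such genes that rose in liver and 0 that fell. MX2, a dynamin-like GTPase that blocks the nuclear import of lentiviruses and herpesviruses, had 3.98, 9.91 and 23.4 CPM in HCHF libraries (lowest, median and highest) and 2.7, 6.41 and 18.1 CPM in LCLF libraries. The ranges overlapped, but 72 of 84 animals were higher on the HCHF diet, by 0.69 ± 0.06 on the log2 scale (SE, n = 84 for all liver values; edgeR adjusted p = 6.57e-17). SAMD9 and SAMD9L, neighbouring paralogs that restrict poxviruses, moved alike. SAMD9 had 1.94, 4.42 and 11.6 CPM in HCHF and 0.940, 2.95 and 8.23 CPM in LCLF libraries, a change of 0.67 ± 0.07 seen in 70 animals. SAMD9L had 2.25, 7.78 and 23.7 CPM in HCHF and 2.18, 5.43 and 9.91 CPM in LCLF libraries, and changed by 0.61 ± 0.05 with 74 animals higher. The highest HCHF library was thus above every LCLF library for each of these 3 genes, while most of the range was shared. In batch 1 and batch 2 alone MX2 changed by 0.44 and 0.71, SAMD9 by 0.42 and 0.70, and SAMD9L by 0.48 and 0.64.

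Smaller changes passed the test for OASL (0.43 ± 0.09), an oligoadenylate synthetase-like protein that boosts RNA sensing, and for 3 of the 4 IFIT genes, whose products bind viral RNA and block its translation. IFIT2 had 6.15, 19.7 and 32.4 CPM in HCHF and 5.25, 15.4 and 24.1 CPM in LCLF libraries, and was higher in 65 animals by 0.36 ± 0.06. IFIT3 changed by 0.29 ± 0.06 and IFIT5 by 0.12 ± 0.03. RSAD2, or viperin, which makes a chain-terminating nucleotide, changed by 0.28 ± 0.10, and OAS2 by 0.17 ± 0.06. Other widely used markers did not pass. MX1, the cytoplasmic relative of MX2, had 12, 60.1 and 231 CPM in HCHF and 13.4, 49.0 and 228 CPM in LCLF libraries (0.14 ± 0.07; edgeR adjusted p = 0.0758), and OAS1 changed by 0.10 ± 0.06 (edgeR adjusted p = 0.161). IFIT1, OAS3, CMPK2, ISG20, EIF2AK2 and BST2 lay between -0.09 and 0.14.

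In the ISG15 pathway 2 of 5 genes rose in liver, UBE2L6 by 0.35 ± 0.06 with 65 of 84 animals higher, and HERC5, the ligase that attaches ISG15, by 0.27 ± 0.06 with 61 higher. ISG15 itself averaged 29.8 CPM in HCHF and 25.6 CPM in LCLF libraries (SD 22.6 and 17.7, n = 84 each) and did not pass (0.17 ± 0.08; edgeR adjusted p = 0.0864). HERC6, the relative of HERC5, and USP18 were each at 0.12 and did not pass. Of the RNA sensors, IFIH1, or MDA5, rose by 0.12 ± 0.04, and DHX58, or LGP2, was at 0.06 ± 0.05.

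The transcription factors split. IRF1, which type II interferon induces, had 9.66, 20.4 and 55.3 CPM in HCHF and 6.34, 14.5 and 38.0 CPM in LCLF libraries, and was higher in 68 of 84 animals by 0.58 ± 0.06 (edgeR adjusted p = 7.27e-13). IRF7, which drives the later wave of interferon synthesis, rose by 0.24 ± 0.06, and IRF9 was at 0.05 ± 0.04. STAT2 had 40.4, 115 and 251 CPM in HCHF and 64.9, 140 and 270 CPM in LCLF libraries. It was the member that fell, by 0.31 ± 0.05 on the log2 scale, with 16 of 84 animals higher on the HCHF diet (edgeR adjusted p = 5.62e-08), and by 0.34 in batch 1 and 0.32 in batch 2.

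GBP1, a guanylate-binding protein that coats the vacuoles of intracellular microbes, had 3.17, 15.3 and 131 CPM in HCHF and 2.45, 10.6 and 59.9 CPM in LCLF libraries, and changed by 0.63 ± 0.09 with 66 of 84 animals higher. The ADP-ribosyltransferases PARP9 (0.14 ± 0.04) and PARP14 (0.19 ± 0.06), the ubiquitin ligase DTX3L that pairs with PARP9 (0.10 ± 0.04), and SP100, a constituent of nuclear bodies (0.20 ± 0.03), all rose. PARP9 and DTX3L overlap on the chromosome, and since the strand setting of the counting was not stated, their reads cannot be told apart for certain. EPSTI1 (0.35 ± 0.07), XAF1, a proapoptotic zinc finger protein (0.32 ± 0.09), and IFI44L (0.25 ± 0.06) rose among the other inducible proteins. IFI35, IFI44 and IFI6 did not pass, the last at 456 CPM in HCHF and 472 CPM in LCLF libraries on average.

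**Figure D2:**
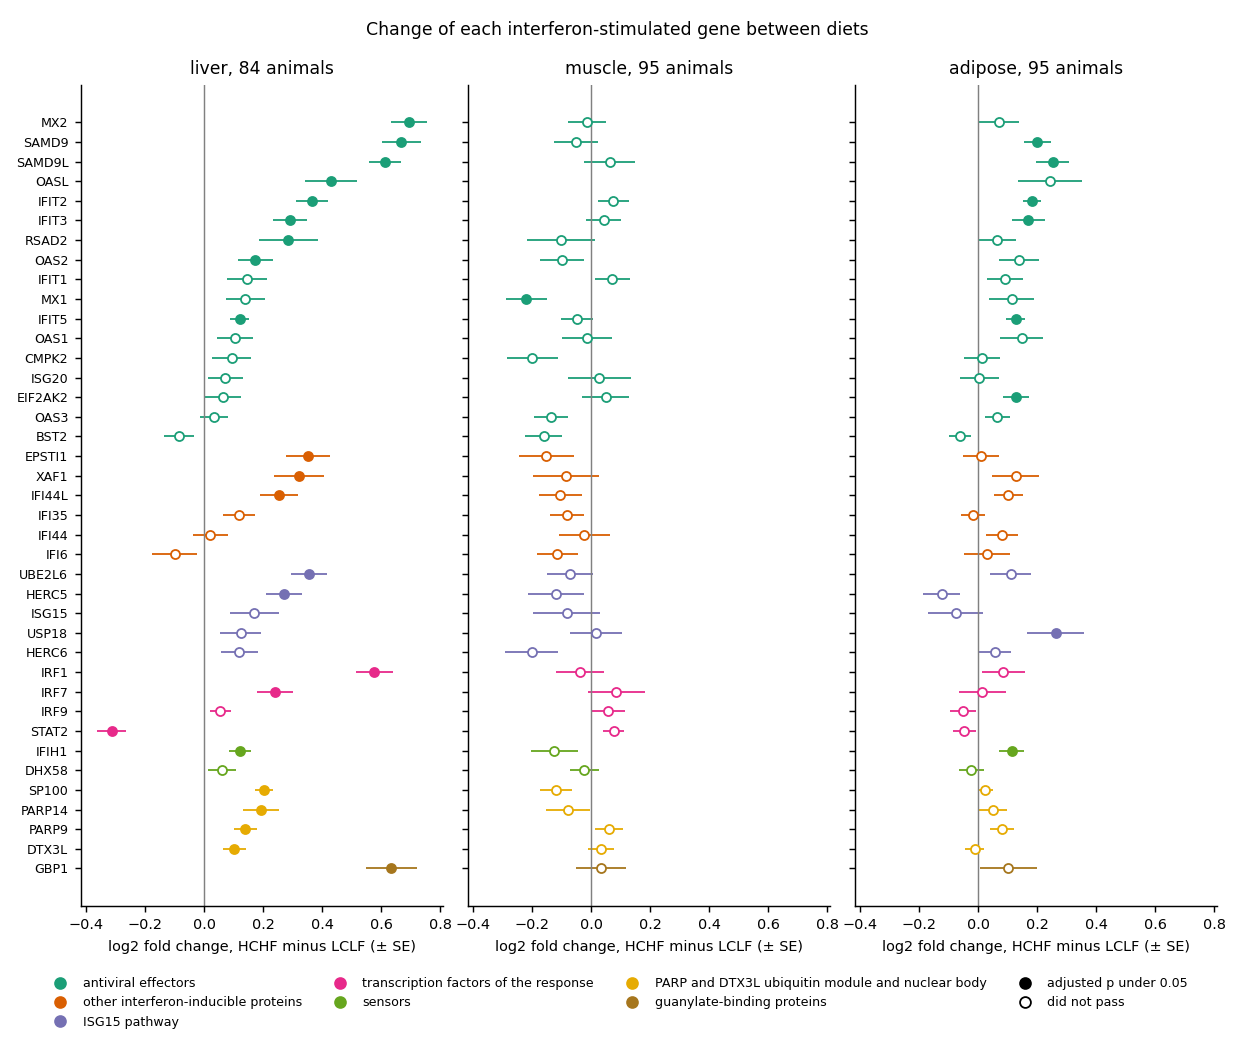
Change of each gene between diets in liver, muscle and adipose tissue, as log2 fold change HCHF minus LCLF with its SE; filled points have an edgeR adjusted p under 0.05 and colours give the role. Liver holds 22 filled points to the right of 0 and STAT2 at -0.31 to the left, muscle 1 (MX1 at -0.22), and adipose tissue 8 on the right.

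In muscle 0 of 38 genes rose and 1 fell, where 6.7% and 7.91% of all genes did (edgeR). At an unadjusted p under 0.05, 1 was higher and 6 lower, and DESeq2 without the animal block, with RLE scaling, called 0 in either direction. The median change was -0.051 against 0.001 for all genes, and 25 of 38 values were negative. The gene that fell was MX1, at 0.783, 3.72 and 15.1 CPM in HCHF and 1.63, 3.98 and 19.3 CPM in LCLF libraries (-0.22 ± 0.07, n = 95; edgeR adjusted p = 0.0225), with 40 of 95 animals higher on the HCHF diet. Medians of the diets lay close together and the ranges overlapped almost wholly. Without the pairing of the libraries MX1 did not pass, and without the 2 animals in doubt BST2 fell as well (-0.18; -0.16 ± 0.06 with all animals). CMPK2, a mitochondrial nucleotide kinase, and HERC6 were at -0.20 ± 0.08 and -0.20 ± 0.09, short of the threshold. STAT2 had 6.89, 16.5 and 38.6 CPM in HCHF and 6.76, 16.1 and 43.3 CPM in LCLF libraries and did not pass (0.08 ± 0.04).

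In adipose tissue 8 of 39 genes rose and 0 fell, close to the 18.7% of all genes that rose and below the 19.9% that fell (edgeR; at an unadjusted p under 0.05, 13 and 0, and by DESeq2 without the animal block 5 and 0). The median change was 0.08 against -0.005 for all genes. IFIT2 had 44.8, 74.2 and 139 CPM in HCHF and 39.4, 65.2 and 123 CPM in LCLF libraries, and was higher in 72 of 95 animals by 0.18 ± 0.03 (edgeR adjusted p = 1.21e-06), the smallest p of the list in this tissue. SAMD9L had 15.6, 32.8 and 90.3 CPM in HCHF and 12.8, 27.1 and 86.7 CPM in LCLF libraries (0.25 ± 0.06; 66 of 95 animals higher). SAMD9 changed by 0.20 ± 0.04. These 3 genes thus rose in adipose tissue as in liver, with diets that overlapped widely.

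USP18 had 2.67, 15.7 and 40.2 CPM in HCHF and 3.57, 11.9 and 77.3 CPM in LCLF adipose libraries, and changed by 0.26 ± 0.10 (edgeR adjusted p = 0.023; 57 of 95 animals higher). IFIT3 (0.17 ± 0.06), IFIT5 (0.13 ± 0.03), EIF2AK2, the kinase PKR that halts translation (0.13 ± 0.04), and IFIH1 (0.11 ± 0.04) completed the genes that passed. HERC5 had the lowest value, -0.12 ± 0.06, and did not pass. The adipose count moved with the choice of animals. It was 17 of 39 without the 9 animals in doubt, against 18.7% of all genes. Without the animal block it was 4 of 39, against 11.1%. Batch 1 alone, with 16 animals, gave 0 genes by limma-voom in either direction, with 2 higher and 0 lower at an unadjusted p under 0.05. Of all genes that fit called 0.0% higher and 0.00641% lower.

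**Figure D3:**
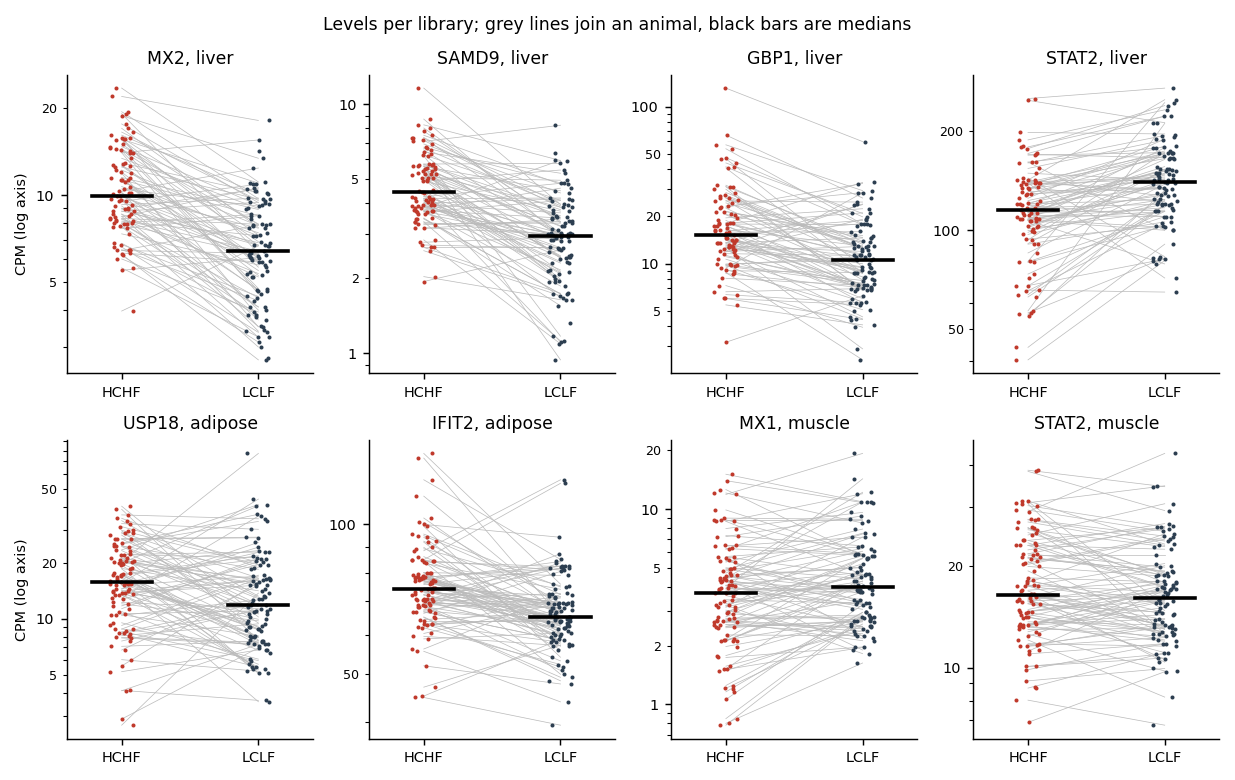
Level of MX2, SAMD9, GBP1 and STAT2 in liver, USP18 and IFIT2 in adipose tissue, and MX1 and STAT2 in muscle, in CPM per library (log axis), HCHF on the left and LCLF on the right; grey lines join the libraries of an animal and black bars are medians. The diets overlap in each panel, and the liver medians are 9.91 against 6.41 CPM for MX2 and 115 against 140 CPM for STAT2.

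The change of diet was compared between tissues within the same animals by limma on the difference of the log2 changes. Liver minus muscle was above 0 for 17 of 38 genes (16.7% of all genes) and below 0 for 1, STAT2 (16.1% of all genes; 80 animals). Liver minus adipose tissue was above 0 for 10 of 39 genes (20.5%) and below 0 for STAT2 (17.2%; 82 animals). For the second pair the count above 0 is near the share of all genes, and the count below 0 is under it. MX2 changed by 0.71 in liver and 0.03 in muscle, a difference of 0.68 ± 0.08 (limma adjusted p = 3.72e-11). In the animals with both tissues, SAMD9 changed by 0.65 in liver and 0.19 in adipose tissue, a difference of 0.46 ± 0.08, so the rise shared by both was larger in liver. IRF1 and GBP1 differed from adipose tissue by 0.48 ± 0.09 and 0.49 ± 0.11. STAT2 changed by -0.34 in liver and 0.09 in muscle, a difference of -0.43 ± 0.06 (limma adjusted p = 4.53e-08).

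Adipose tissue minus muscle was above 0 for 5 of 38 genes (5.96%) and below 0 for 0 (6.85%; limma, 91 animals; 14 and 1 at an unadjusted p under 0.05). MX1 differed most, with a change of 0.12 in adipose tissue and -0.24 in muscle (0.36 ± 0.10). The difference was also seen for OAS3 (0.22 ± 0.06), IFIH1 (0.25 ± 0.08), SAMD9 (0.23 ± 0.08) and IFIT5 (0.15 ± 0.05). Without the animals in doubt 8 genes passed (5.22% of all genes above 0), and in batch 2 alone 2 did (4.51%). The 13 to 16 animals of batch 1 alone gave 0 calls for any pair by limma, with 1 gene higher and 1 lower at an unadjusted p under 0.05 for each pair. Of all genes 0.0% were called there in either direction for each pair.

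Genes around the response were taken from 6 further lists, whose counts stand against 22.3% of all genes higher and 27.1% lower in liver, 6.7% and 7.91% in muscle, and 18.7% and 19.9% in adipose tissue. No gene of 8 interferons was tested in liver or muscle. In adipose tissue IFNE, an epithelial type I interferon, was the 1 tested, at a mean of 1.43 CPM in HCHF and 0.986 CPM in LCLF libraries (0.53 ± 0.13). Among the interferon receptors and their kinases, the liver genes with the largest changes were IFNGR1 (0.23 ± 0.04) and IFNGR2 (0.21 ± 0.05), the chains of the type II receptor, and JAK2, its kinase (0.21 ± 0.04). In the same tissue IFNLR1 (-0.18 ± 0.05), a chain of the type III receptor, the kinase TYK2 (-0.17 ± 0.04) and IFNAR1 (-0.11 ± 0.04), a chain of the type I receptor, fell; these 3 are named after their values were seen. In adipose tissue IFNGR2 (0.14), JAK2 (0.11) and IL10RB (0.10), a chain of the type III receptor, rose.

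Of the nucleic acid sensors and adaptors 7 rose and 1 fell of 12 tested in liver, 1 rose of 8 in muscle and 5 rose of 13 in adipose tissue. The endosomal receptors TLR8 (1.28 ± 0.13), TLR7 (1.16 ± 0.13) and TLR9 (0.78 ± 0.07) led in liver, TLR8 (0.60 ± 0.12), TLR7 (0.36 ± 0.13) and TLR3 (0.25 ± 0.07) in adipose tissue, and AIM2, a sensor of cytosolic DNA (0.25 ± 0.09), was the muscle gene. Of 9 sensor kinases and interferon regulatory factors, 4 rose and 1 fell in liver, led by IRF8 (1.07 ± 0.10), IKBKE (0.72 ± 0.10) and IRF4 (0.66 ± 0.12). In muscle 2 of 6 rose (TRAF3 and TRAF6), and in adipose tissue IKBKE rose (0.16) and TRAF6 fell by 0.08. Of the negative regulators 6 of 9 rose in liver, 2 of 9 in muscle, and 2 rose and 1 fell of 10 in adipose tissue. PTPN6, the phosphatase SHP-1, and TNFAIP3, the deubiquitinase A20, rose in all 3 tissues, with SOCS3 the largest change in liver (0.57 ± 0.14) and RNF125 the gene that fell in adipose tissue (-0.17 ± 0.07).

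Of 58 further interferon-stimulated genes 44 were tested in liver, where 29 rose and 3 fell. SIGLEC1, a lectin of macrophages, IDO1, a tryptophan-degrading enzyme, and CXCL11, a chemokine for T cells, had the largest changes (0.90 ± 0.08, 0.87 ± 0.13 and 0.82 ± 0.12). In muscle 3 rose and 4 fell of 40, with HELZ2 (-0.22), SLFN5 (-0.20) and LAP3 (0.19) at the ends. In adipose tissue 10 rose and 5 fell of 44, near the 18.7% of all genes that rose, led by CD274 (0.36), LGALS3BP (0.28) and TRIM14 (0.23). The median change of this longer list, 0.186 in liver, -0.037 in muscle and 0.042 in adipose biopsies, had the sign of that of the 39 genes in each tissue.

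Markers of other cell types moved with the liver values. Their counts stand against 22.3% of all genes higher and 27.1% lower in liver. The shares were 6.7% and 7.91% in muscle, and 18.7% and 19.9% in adipose tissue. Of the macrophage markers 10 of 11 tested rose in liver and 0 fell, and the 12 with a row took 0.0517 to 0.202% of counts in HCHF libraries (median 0.109%) and 0.0255 to 0.144% in LCLF libraries (median 0.0843%), with TIMD4 at a median count of 0. Of the T and NK cell markers 11 of 12 rose, with a median share of 0.00772% in HCHF and 0.00401% in LCLF libraries (ranges 0.00344 to 0.0214% and 0.00133 to 0.0145%). All 11 endothelial markers rose, with medians of 0.0218% and 0.0138% (0.0124 to 0.0625% and 0.0064 to 0.0286%), and 8 of 11 hepatocyte markers fell (medians 19.4% and 20.2%). Of the genes listed for plasmacytoid dendritic cells, which make much of the body's interferon, 2 of 2 tested rose in liver (JCHAIN and TCF4). CLEC4C and LAMP5 had median counts of 0 there. The 2 genes do not identify these cells on their own, and B and plasma cell markers (5 of 6) and all endothelial markers rose in liver too. Whether plasmacytoid dendritic cells became more frequent was not tested. In muscle 0 of 2 such markers changed, and in adipose tissue 0 of 3 rose and LAMP5 fell (-0.31 ± 0.08). Across animals the change of the mean of the listed genes had r of 0.449 with that of the macrophage markers, 0.474 with T and NK cells, 0.282 with endothelium and 0.575 with proliferation genes (84 animals, description only). In a limma fit with the changes of the cell type scores as covariates, 0 members were higher and 0 lower in liver, with 0 and 2 at an unadjusted p under 0.05, but the share of all genes called fell as well, to 0.201% higher and 0.121% lower. MX2 was at 0.11, GBP1 at 0.27 and STAT2 at -0.19 in that fit.

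In muscle the scores of several cell types correlated across animals with the mean of the list, while their markers changed in different directions between diets. Of all genes 6.7% rose and 7.91% fell in muscle, and 18.7% and 19.9% in adipose tissue. Endothelial scores correlated with the mean of the 38 genes at 0.801 in HCHF and 0.815 in LCLF libraries and at 0.688 for the change, and 8 of 11 endothelial markers fell and 0 rose. Their share of counts was 0.0124 to 0.103% in HCHF (median 0.0307%) and 0.0138 to 0.116% in LCLF libraries (median 0.0329%). Of the macrophage markers 6 of 9 rose in muscle and 0 fell (medians 0.00223% and 0.00165% of counts in HCHF and LCLF libraries; ranges 0.00056 to 0.0248% and 0.000587 to 0.00906%), and of the T and NK cell markers 4 of 7 rose and 0 fell (medians 0.00101% and 0.000813%; ranges 0.00027 to 0.00524% and 0.00031 to 0.00292%), with r of 0.491 and 0.626 between the change of their scores and that of the list. In adipose tissue T and NK cell scores had r of 0.519 in HCHF and 0.708 in LCLF libraries with the mean of the 39 genes, and 0.625 for the change, while 2 of 12 such markers rose (medians 0.0297% and 0.0255% of counts; ranges 0.00999 to 0.0867% and 0.00667 to 0.110%). Of the macrophage markers 10 of 12 rose there (medians 0.124% and 0.0911%; ranges 0.0283 to 0.328% and 0.00947 to 0.335%), with r of 0.498 for the change. The adipocyte score had r of 0.016 in HCHF and -0.570 in LCLF adipose libraries with the mean of the 39 genes, and -0.399 for the change. For the proliferation score r was 0.489, 0.612 and 0.535. With the covariates 1 gene was higher in adipose tissue, IFIT2 (0.13; 9.03% of all genes), and 1 lower in muscle, MX1 (-0.21; 2.15%). Otherwise the part of these cell types in the values was not tested. Of the remaining marker lists, monocyte and neutrophil genes rose for 7 of 7 in liver and in adipose tissue and 0 of 4 in muscle, B and plasma cell genes for 5 of 6, 2 of 6 and 0 of 2, fibroblast and stellate cell genes for 10 of 10, 7 of 10 and 4 of 10 (1 fell), and erythroid genes for 2 of 2, 3 of 3 and 0 of 2, in that order of tissues. Proliferation genes rose for 5 of 5 in liver, 3 of 7 in adipose tissue and 1 of 2 in muscle. In muscle 5 of 10 myocyte markers fell, and in adipose tissue 1 of 8 adipocyte markers rose and 1 fell. The adipocyte counts and the 2 of 12 T and NK cell markers are not above the shares of all genes in adipose tissue.

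The spread of the genes between animals was compared between diets by the Pitman-Morgan test. No member passed in either direction in liver, muscle or adipose tissue, while 3.65%, 3.15% and 0.232% of all genes were more spread on the HCHF diet and 0.711%, 0.279% and 1.21% less. At an unadjusted p under 0.05 there were 4, 4 and 1 genes, and with Spearman's rho 0 passed in each tissue. The within-animal change itself varied more for most of the genes than for the median gene. The median SD of the change was 0.56 for the listed genes and 0.477 for all genes in liver, 0.733 and 0.524 in muscle, and 0.557 and 0.44 in adipose tissue, and it lay above the value for all genes in 30 of 39, 31 of 38 and 25 of 39 genes. SP100 varied least in liver (0.278) and adipose tissue (0.241), and STAT2 in muscle (0.341). RSAD2 (0.892), ISG15 (1.02) and OASL (1.04) varied most in liver, muscle and adipose tissue. Some of these are low: RSAD2 had medians of 1.39 CPM in HCHF and 1.19 CPM in LCLF liver, and ISG15 0.841 and 0.839 CPM in muscle. The comparison was with genes of every level, so the part of counting noise in these SDs was not tested.

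Single libraries reached far above the rest for some genes. The highest GBP1 library was 1110 CPM in HCHF and 850 CPM in LCLF adipose tissue, 15.6 and 12.7 times the median, from different animals (15889 and 17141). In muscle the highest IFI6 library was 13.7 times the HCHF median and 6.72 times the LCLF median. The first of these (138 CPM) is from animal 17325, which is in doubt for muscle, and the second from animal 16879. The mean log2 CPM of the tested genes, centred within batch and called the score here, ranged from -1.62 to 0.75 in HCHF and -0.78 to 1.01 in LCLF liver. It ranged from -1.09 to 1.34 in HCHF and -0.92 to 1.87 in LCLF muscle, and from -0.88 to 1.36 in HCHF and -0.95 to 1.63 in LCLF adipose tissue. Counted from the highest, animal 16879 had rank 1 in LCLF muscle, rank 2 in HCHF muscle, rank 3 in LCLF liver and rank 7 in LCLF adipose tissue, but rank 38 of 87 in HCHF liver. Animal 15566 was highest in liver on both diets and had rank 2 in LCLF adipose tissue, and it is in doubt for adipose tissue. Animal 12152, in doubt for liver and adipose tissue, was lowest in HCHF liver and HCHF adipose tissue. The highest LCLF adipose score was that of animal 15279, which is in doubt for adipose tissue.

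Levels on the diets correlated across animals for 39 of 39 genes in liver, 38 of 38 in muscle and 37 of 39 in adipose biopsies, but so did 85.2%, 90.8% and 84.2% of all genes, so the counts are near the background. The median r was 0.544 for the listed genes against 0.386 for all genes in liver, 0.444 against 0.456 in muscle, and 0.371 against 0.373 in adipose tissue. STAT2 in muscle had the highest value, r = 0.768 and rho = 0.742 (95 animals, permutation p = 1e-05 for each, the smallest that 100000 pairings can give). It was 0.747 without the 2 animals farthest from the HCHF median, 0.711 in batch 1 and 0.776 in batch 2. MX1 had r = 0.728 in liver, 0.652 in muscle and 0.397 in adipose biopsies. DTX3L in adipose tissue had the lowest, 0.152. The score itself had r = 0.651 in liver, 0.609 in muscle and 0.332 in adipose biopsies, and within batch 1 and batch 2 0.706 and 0.651, 0.384 and 0.650, and 0.082 and 0.419.

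Levels were next compared between tissues of the same animal, after centring within batch and with p-values adjusted over all genes tested in both tissues, for 9 relations in all. On the HCHF diet 34 of 38 genes correlated between liver and muscle (55.3% of all genes), 34 of 39 between liver and adipose tissue (50.2%) and 31 of 38 between adipose tissue and muscle (29.5%). The medians of r were 0.402, 0.404 and 0.328, against 0.266, 0.245 and 0.163 for all genes. On the LCLF diet the counts were 24 of 38 (37.2%), 30 of 39 (54.0%) and 17 of 38 (31.0%), with medians of 0.280, 0.331 and 0.235 against 0.190, 0.248 and 0.161. All significant values were positive. Without the animals in doubt the counts were 32, 30 and 26 on the HCHF diet and 23, 25 and 17 on the LCLF diet. The medians of r were then 0.402, 0.318 and 0.313, and 0.304, 0.293 and 0.224. Over all genes they were 0.252, 0.243 and 0.165, and 0.181, 0.254 and 0.167. Without the 2 animals farthest from the median in the first-named tissue, the lowest count was 13 of 38, between adipose tissue and muscle on the LCLF diet (median 0.182 against 0.152). Animals far out only in the second tissue were kept. The tissues of each animal went through the same batches from RNA extraction to sequencing, so a level common to an animal's tissues and one common to its batches cannot be told apart.

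OAS1 had the highest r between liver and muscle on the HCHF diet, 0.641 (rho 0.555; 86 animals, permutation p = 1e-05 for both, adjusted p = 1.36e-09). It was 0.554 without the 2 farthest animals, 0.882 in batch 1 and 0.518 in batch 2. Between liver and adipose tissue OAS1 had r = 0.603 (rho 0.516; 85 animals, permutation p = 1e-05 for both, adjusted p = 3.87e-08; 0.542 without the 2 farthest, 0.488 and 0.668 within the batches), and between adipose tissue and muscle 0.535 (rho 0.516; 94 animals, permutation p = 1e-05 for both, adjusted p = 1.03e-06; 0.521, 0.502 and 0.549). Its LCLF values were 0.470, 0.554 and 0.383. With all animals kept, an animal with high OAS1 in 1 tissue thus tended to have high OAS1 in the others on both diets. MX1 (0.562, 0.525 and 0.581), OAS3 (0.608, 0.588 and 0.597) and GBP1 (0.630, 0.499 and 0.476) were alike on the HCHF diet, in the same order of pairs. Animal 12152 is in batch 1 and in doubt for liver and adipose tissue. On the HCHF diet it had the lowest OAS1 library in liver (2.18 CPM), muscle (0.106 CPM) and adipose tissue (12.8 CPM). Without the animals in doubt the highest HCHF r of any listed gene was 0.629, 0.524 and 0.575 in that order. OAS1 was then lower than given above for liver with muscle and for liver with adipose tissue, and OAS3 for the latter. STAT2, which followed the other genes weakly within liver, still correlated between tissues on the LCLF diet (0.461, 0.572 and 0.534). SP100 was near 0 between liver and muscle (0.062 on the HCHF and 0.050 on the LCLF diet) and BST2 on the LCLF diet too (-0.061).

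**Figure D4:**
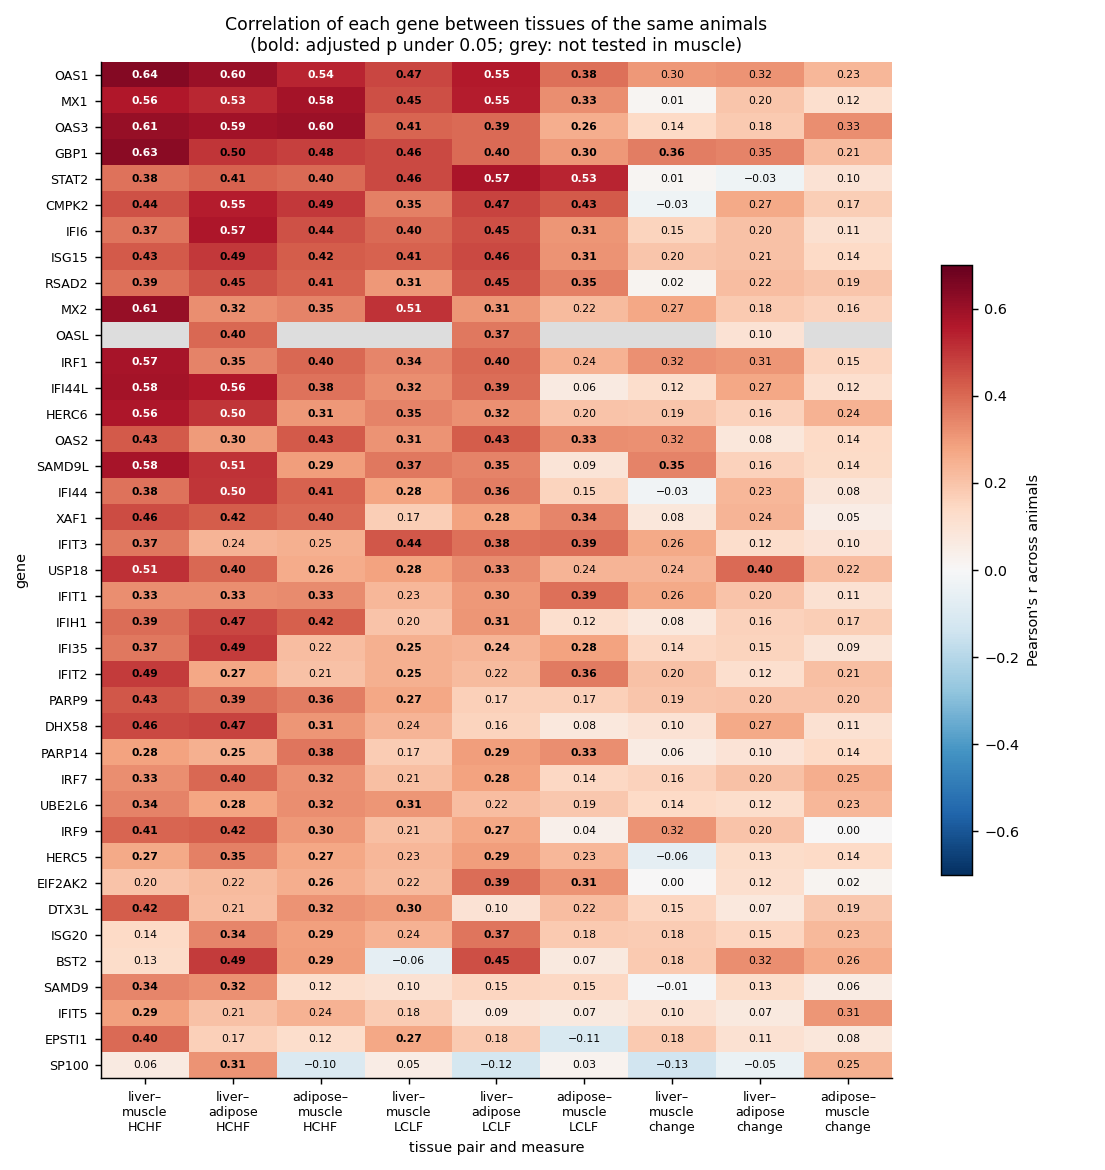
Pearson's r of each gene's log2 CPM across animals, for each pair of tissues (columns) on the HCHF diet, on the LCLF diet and for the change, with genes ordered by their mean over the 6 level columns; bold values have an adjusted p under 0.05. OAS1 is high on both diets (0.641 between liver and muscle on the HCHF diet), SP100 is near 0 for liver and muscle, and 3 values pass in the columns of the change.

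Fewer genes passed for the change between diets than for either level, among the listed genes as among all genes; the difference between change and level was not tested. Between liver and muscle 2 of 38 genes correlated in their change (8.1% of all genes), GBP1 and SAMD9L. Between liver and adipose tissue USP18 alone did, of 39 genes (1.86%), and between adipose tissue and muscle 0 of 38 (0.978%; 12 at an unadjusted p under 0.05, and 0 with Spearman's rho). GBP1 had r = 0.359 (rho 0.352; 80 animals, permutation p = 0.00118 and 0.00157, adjusted p = 0.0249; 0.331 without the 2 farthest animals, 0.301 in batch 1 and 0.374 in batch 2). SAMD9L had r = 0.347 (rho 0.302; 80 animals, permutation p = 0.00181 and 0.00698, adjusted p = 0.0309; 0.328, 0.595 and 0.309). USP18 had r = 0.399 (rho 0.386; 82 animals, permutation p = 0.00021 and 0.00037, adjusted p = 0.021; 0.370, 0.387 and 0.403). All 3 fell short of the adjusted threshold without the animals in doubt, where r was 0.297, 0.340 and 0.372. The medians of r for the change were 0.152, 0.183 and 0.148 over the listed genes, against 0.110, 0.084 and 0.075 over all genes.

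The score gave the same order. Between liver and muscle its r was 0.496 on the HCHF diet, 0.354 on the LCLF diet and 0.197 for the change, between liver and adipose tissue 0.491, 0.383 and 0.273, and between adipose tissue and muscle 0.431, 0.213 and 0.188. Within batch 1 these were 0.768, 0.449 and 0.407, 0.353, 0.418 and 0.057, and 0.351, 0.245 and 0.322. Within batch 2 they were 0.426, 0.342 and 0.135, 0.558, 0.377 and 0.352, and 0.471, 0.209 and 0.131. Without the animals in doubt the largest shift was between liver and adipose tissue, at 0.373, 0.328 and 0.138. That the value was larger on the HCHF than on the LCLF diet was not tested. The score itself was higher after the HCHF diet in 63 of 84 animals in liver (mean change 0.21), 47 of 95 in muscle (-0.05) and 56 of 95 in adipose tissue (0.08).

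**Figure D5:**
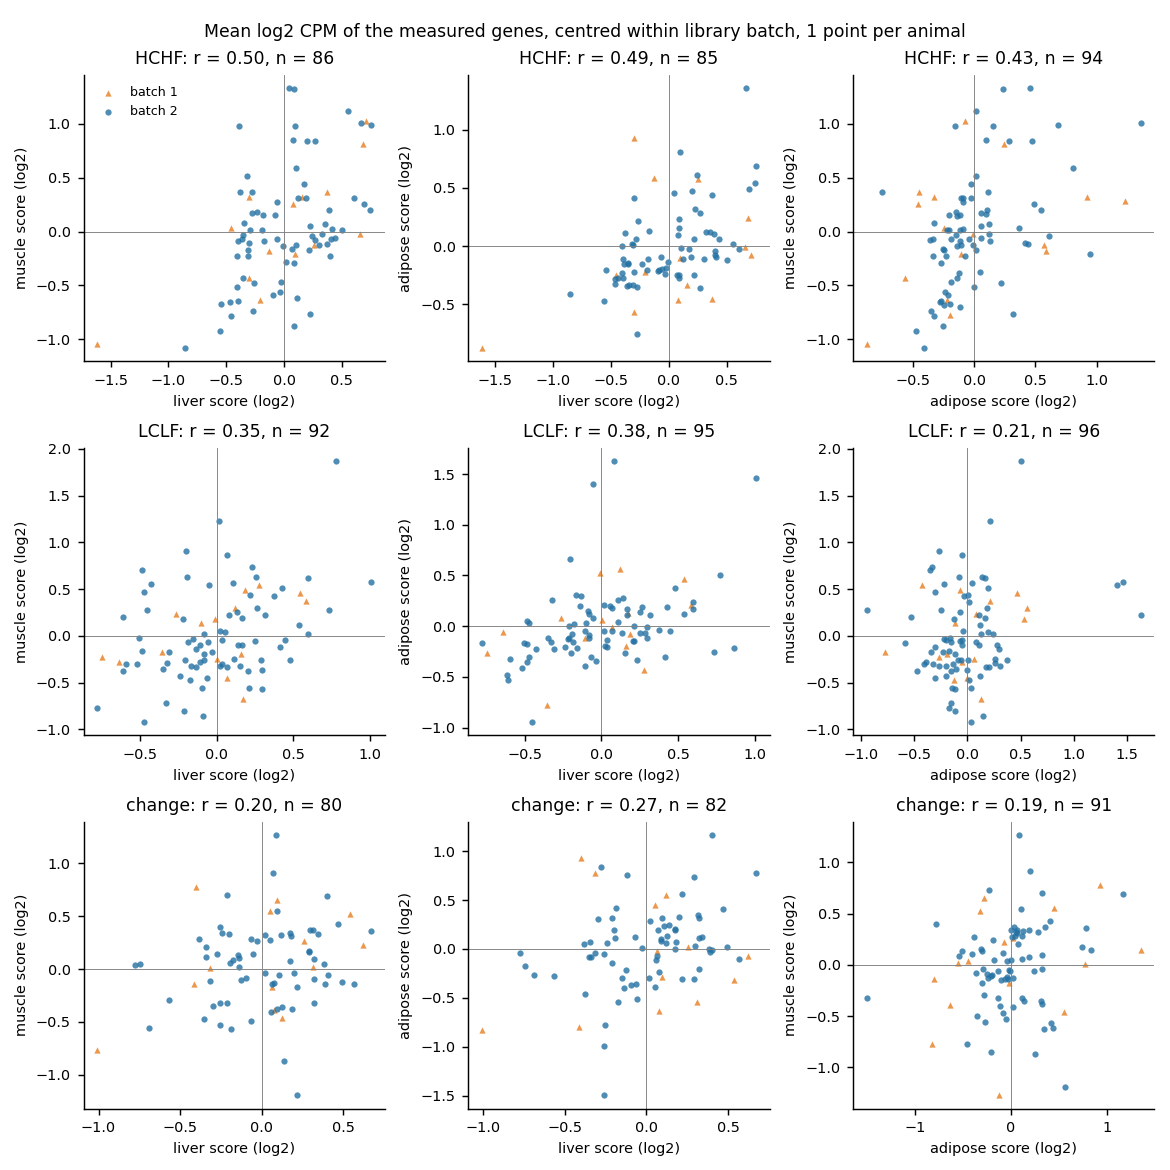
Score of the listed genes (mean log2 CPM, centred within library batch) in pairs of tissues of the same animal, on the HCHF diet (top), on the LCLF diet (middle) and for the change (bottom); each point is an animal, with triangles for batch 1 and circles for batch 2. The clouds slope upwards on both diets (r from 0.213 to 0.496). Within each pair of tissues r is lower for the change (0.188 to 0.273), but the ranges overlap and the difference was not tested.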

How the data were processed

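RNA was sequenced from liver, muscle and adipose biopsies of 99 olive baboons on 2 diets. The authors deposited read counts per gene, before and after their quality control, as whole numbers without normalization; the table after it, 570 of 588 libraries and 34178 genes, was used, and no column was left unmapped (0). STAR 2.7.7a, FastQC and featureCounts are named in the submitters' processing notes; genome build, annotation and strand setting of the counting were not stated in the sources used here. Of the symbols, 33824 matched RefSeq's Panubis1.0 gene table.

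Total counts were 6.51 M to 38.46 M per library, so precision is lowest for genes with few counts. The labels give the sizes of the library batches, an unstranded single-end kit and a stranded paired-end kit, but not their animals: batches of 16 and 83 animals were taken from axis 1 of a principal component analysis of mean expression per animal (21.0% of variance), where the gap between them was 39.8 against 5.2 for the next largest.

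Libraries of an animal were paired by the animal number in the labels. Diet effects and LCLF levels between tissues were tested with edgeR 4.0.16's quasi-likelihood test (TMM scaling, genes kept by filterByExpr at a minimum count of 10, animal as block, 1 common dispersion estimated on every 10th gene by abundance) in R 4.3.3. Differences of the change between tissues used limma 3.58.1 on log2 CPM with a prior count of 2. Correlations across animals used log2 CPM centred within batch, with p-values for all genes and permutation tests of 100000 pairings for the listed genes; spread between diets was tested by the correlation of sum and difference (Pitman-Morgan). Every p was adjusted by Benjamini-Hochberg over all genes tested, at 0.05. P-values measure the spread between animals; an animal has 1 library per tissue and diet. The edgeR, limma and correlation steps were tested on simulated data. Python 3.11.15 with numpy 2.4.6, scipy 1.17.1, pandas 2.3.3 and matplotlib 3.10.9 was used for correlations and plots.

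The alternatives were RLE scaling, limma-voom, DESeq2 1.42.0 (no animal block), other filters, no block, all 588 libraries, each batch alone, changes of 4 cell type scores as covariates (macrophage, T and NK cell, endothelial and erythroid), rank correlation, no centring, and correlations without the 2 animals farthest from the median. These 2 were taken for each gene by the first value alone. That is the first-named tissue of a pair, the HCHF level for repeatability, or the change for spread. Animals far out only in the second value were kept. Leaving out the animals in doubt, levels scaled by the total count alone and some further settings for spread and repeatability were chosen after seeing the data. The members and lists were chosen with earlier results of these data known. All listed genes are named. Of each other list, the rule was at most 3 genes per tissue with the largest change among those past the threshold. The 3 unlisted genes most like the mean of the list are named too. Outside this rule are the 3 receptor and kinase genes that fell in liver, named after their values were seen. The count over the receptor and kinase list is not reported here.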

Additional observations from a re-analysis of the deposited data

Results flagged for a closer look

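The change between diets differed between tissues of the same animals, by limma's test of the difference itself (Benjamini-Hochberg adjusted over all genes), for 34 combinations of gene and pair of tissues. Of all genes, 16.7% were above 0 and 16.1% below 0 for liver minus muscle. The shares were 20.5% and 17.2% for liver minus adipose tissue, and 5.96% and 6.85% for adipose tissue minus muscle. The total of 34 is therefore not read as particular to the list. Liver minus muscle was largest for SAMD9 (0.711), MX2 (0.675), IRF1 (0.59), GBP1 (0.583) and SAMD9L (0.535), where the liver change was 0.60 to 0.71 and the muscle change -0.04 to 0.09. EPSTI1 (0.446), RSAD2 (0.397), UBE2L6 (0.386), HERC5 (0.349), MX1 (0.318), IFI44L (0.307), IFIT2 (0.298), SP100 (0.285), OAS2 (0.246), PARP14 (0.245), IFIT3 (0.228) and IFI35 (0.19) followed in the same direction. MX1 and IFI35 passed here although neither passed the test of the diet effect in liver. STAT2 had the opposite sign (-0.432), with a change of -0.34 in liver and 0.09 in muscle.

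Liver minus adipose tissue was highest for MX2 (0.599), at 0.69 in liver and 0.10 in adipose tissue, and for GBP1 (0.487), IRF1 (0.475) and SAMD9 (0.459). HERC5 (0.35) was at 0.27 in liver and -0.08 in adipose tissue. SAMD9L (0.336), EPSTI1 (0.314), UBE2L6 (0.23), SP100 (0.176) and IFIT2 (0.161) were also above 0, and STAT2 below it (-0.234). Adipose tissue minus muscle was above 0 for MX1 (0.356), IFIH1 (0.253), SAMD9 (0.231), OAS3 (0.224) and IFIT5 (0.149), of which MX1 and OAS3 passed no test of the diet effect in adipose tissue. No explanation of these differences was tested.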

How the results depend on the processing

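Among the alternatives for the diet effect, 0 listed genes had the opposite sign past the threshold. With all 588 libraries 14 genes rose and 2 fell in liver (23.2% and 20.7% of all genes), and 2 fell in muscle (6.53%). In batch 1 alone, with 13 to 16 animals, 3 rose and 0 fell in liver (4.75% and 2.18% of all genes). In muscle 0 fell (0.0244%), and in adipose tissue 0 rose (0.0%). There were 0 calls for liver minus muscle, liver minus adipose tissue and adipose tissue minus muscle, as for 0.0% of all genes. OAS2 (-0.0253) and XAF1 (-0.0824) were negative in batch 1 liver. In batch 2 alone adipose tissue minus muscle gave 2 genes, the change 1 correlation between liver and muscle and 0 between liver and adipose tissue, and 1 gene was less spread in HCHF adipose tissue. With cell type covariates 0 genes rose or fell in liver and 1 rose in adipose tissue, and estimates were negative in liver for IFI44L (-0.196), PARP14 (-0.0991), OAS2 (-0.047), IFIH1 (-0.0258), IFIT3 (-0.00499), UBE2L6 (-0.0132), RSAD2 (-0.0354), EPSTI1 (-0.076) and XAF1 (-0.321), and in adipose tissue for EIF2AK2 (-0.0178); the cause was not tested.

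Without the animals in doubt 17 genes rose in adipose tissue (18.7% of all genes) and 2 fell in muscle (7.25%). For adipose tissue minus muscle 8 were higher (5.22%). There were 0 correlated changes between tissues, and also 0 without the 2 farthest animals. With Spearman's rho 0 changes correlated between liver and muscle and 2 between liver and adipose tissue, and without centring 5 between liver and muscle. Scaling by the total count alone put adipose tissue above liver for 35 genes.

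Pairing by animal mattered for 2 counts. Without the replicate block 0 genes fell in muscle (0.976% of all genes) and 4 rose in adipose tissue (11.1%). By DESeq2, also without the replicate block, 0 fell (0.969%) and 5 rose (11.9%). Other counts stayed within 1.5 times. Over the settings, single genes lost their call without a change of sign 50 times in liver, 3 in muscle and 23 in adipose biopsies, with a change of sign 11 times in liver and 1 time in adipose tissue (the values above), and gained one 10, 2 and 10 times. Depth limits genes with few counts, such as OASL in muscle. With the log2 total count the score had r of -0.302 in HCHF and -0.330 in LCLF muscle. These were 0.047 and -0.261 in batch 1, and -0.423 and -0.438 in batch 2. In liver r was -0.238 and -0.082, and in adipose tissue -0.029 and 0.107. The part of depth in the score was not tested.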
